A study of Saccharomyces cerevisiae with 12 samples.

Results

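Haploid cells of budding yeast differ in RNA by their mating type, and the comparison described here asks what is left of that difference when the corepressor Tup1 carries the S649F substitution. It sets 3 tup1(S649F) MATalpha libraries against 3 tup1(S649F) MATa libraries, which are 6 of the 12 libraries of the series. These 6 libraries were chosen by their labels and were fitted alone, over all 6219 genes of the count table. The other 6 libraries, 3 of wild type (WT) MATalpha and 3 of WT MATa, give the mating type difference with Tup1 intact.

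All 4 groups were strains of Saccharomyces cerevisiae W303 that share the auxotrophic alleles ade2-1, his3-11,15, trp1-1, ura3-1 and leu2-3,112 and the allele can1-100, so the controls carry them too. The strains were DY19306 (tup1 MATalpha), DY19304 (tup1 MATa), DY3420 (WT MATalpha) and DY150 (WT MATa). Cultures in log phase were grown at 30 °C in rich medium with added adenine and 2% dextrose, to an optical density of 0.6 to 0.8 at 660 nm, and no mating pheromone is named among the treatments. Each group is 1 strain with 3 replicates. Nothing in the labels ties the replicates to separate cultures, so p-values describe only the spread among these samples, which may be technical, and a difference between groups cannot be told apart from a difference between the single strains.

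The mating type of a haploid is set at the MAT locus. In MATalpha cells the alpha1 protein works with Mcm1 to activate the alpha-specific genes, and the alpha2 protein binds with Mcm1 in front of the a-specific genes and brings in Tup1-Cyc8, which keeps them silent. In MATa cells neither alpha protein is made, so Mcm1 drives the a-specific genes and the alpha-specific genes are not activated. Haploids of either type secrete a pheromone and carry the receptor for the pheromone of the other type. A bound receptor frees a G protein and starts a MAP kinase cascade, which acts through the transcription factor Ste12 on genes for mating and cell fusion.

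Values are raw read counts as deposited, and levels below are CPM, counts scaled to a common library size over all 12 libraries. A gene is called at a Benjamini-Hochberg adjusted p under 0.05 by edgeR's quasi-likelihood test, two-sided, and large means called with a difference of at least 2-fold. Library totals ran from 5657714 to 8337346 counts in tup1 and from 6339280 to 9300353 in WT. The mutant replicates varied more than the WT ones: the median SD of log2 CPM was 0.0981 in tup1 MATalpha and 0.113 in tup1 MATa, against 0.0572 in WT MATalpha and 0.0518 in WT MATa. The libraries did not all sit together, since tup1 MATa replicate 1 differed from replicates 2 and 3 with a chi-square per degree of freedom of 21.0 and 28.3, while those 2 differed from each other at 4.08. Within tup1 MATalpha, replicate 1 was highest and replicate 2 lowest for 7 of 7 a-specific and 5 of 5 alpha-specific genes. Levels of these genes are therefore given in every mutant library. The a1 gene (HMRA1) and the alpha-specific genes matched the labels in all 6 mutant libraries. HMRA1 had 0 counts in each tup1 MATalpha library. The summed alpha-specific level was 9372 ± 1820 CPM in tup1 MATalpha and 75.7 ± 5.88 CPM in tup1 MATa (SD, n = 3 each). The a-specific genes, also markers of MATa cells, did not separate the mutants. Their summed level was 2227 ± 436 CPM in tup1 MATalpha and 1825 ± 90.6 CPM in tup1 MATa. Markers that a/alpha diploids turn off were not low in either mutant, with STE4, the G protein beta subunit, at 94.3 CPM in tup1 MATalpha and 102 CPM in tup1 MATa, against 97.2 CPM in WT MATalpha and 96.9 CPM in WT MATa.

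TUP1 itself (YCR084C, R64 chromosome III 260311 to 262452) had 489, 509.8 and 437 CPM in tup1 MATalpha and 476, 580.0 and 522 CPM in tup1 MATa, and counts per gene cannot show the substitution. Its difference between the mutants was −0.13 ± 0.11 SE on the log2 scale (adjusted p = 0.427), and neither CYC8, its partner, at −0.28 ± 0.10 SE (adjusted p = 0.0566), nor MCM1, at −0.28 ± 0.11 SE (adjusted p = 0.0743), was called. CYC8 was called lower in 4 of 13 other settings and MCM1 in 2. In WT all 3 were called slightly higher in MATalpha, by 0.21, 0.13 and 0.31 in that order, and the interaction (the mating type difference in tup1 minus that in WT) was called for each at −0.34, −0.42 and −0.59.

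Large mating type differences were more numerous in the mutant than in WT, and most of them were higher in MATalpha. In tup1, 787 of 5620 genes tested were higher in MATalpha (14.0%) and 538 were lower (9.57%). Of these, 186 were at least 2-fold higher (3.31%) and 14 at least 2-fold lower (0.249%). In WT, 520 of 5539 genes were higher in MATalpha (9.39%) and 571 lower (10.3%), and 10 were at least 2-fold higher and 10 at least 2-fold lower (0.181% each). With upper-quartile scaling the tup1 calls were 698 higher and 701 lower, without the excess of higher ones, and the balance of the WT calls turned to 628 higher and 458 lower. In WT, 1 fit on all 12 libraries called 30 and 21. The count of 538 was the least firm in tup1, at 288 without tup1 MATa replicate 2 and 975 in the fit on all 12 libraries, and the 14 became 27 without tup1 MATalpha replicate 2. The median log2 difference over all genes was −0.01 in tup1 and 0.01 in WT. The interaction, tested on all 12 libraries, was called higher for 701 of 5654 genes (12.4%) and lower for 648 (11.5%), with 174 (3.08%) and 17 (0.301%) past 2-fold. Upper-quartile scaling turned the balance of the interaction to 631 higher and 863 lower. In tup1 the groups did not overlap in CPM for 2269 of the 5620 genes (40.4%), and for all 200 of the large calls.

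Of the 20 large differences in WT, 6 remained in the mutant, 9 vanished, 4 were reversed and 1 could not be placed, where vanished means no longer both called and at least 2-fold, and vanished and reversed require that the interaction was called. The 6 that remained were the 5 alpha-specific genes and the a1 gene. The 9 that vanished were the a-specific genes STE2, STE6 and MFA2, the genes BSC1 and PRM7, and 4 genes with few counts (CMI8, YNL146W, YNL146C-A and YLL066C). With DESeq2 the number that vanished was 5. The 4 that were reversed were the a-specific genes MFA1, AGA2, BAR1 and ASG7. Large differences that appeared in the mutant numbered 149, of which 143 were higher and 6 lower in tup1 MATalpha, and 26 of the 149 had too few counts in WT to be tested there. A further 41 genes were large in tup1 without a called interaction, so they are not shown to differ from WT.

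**Figure D1:**
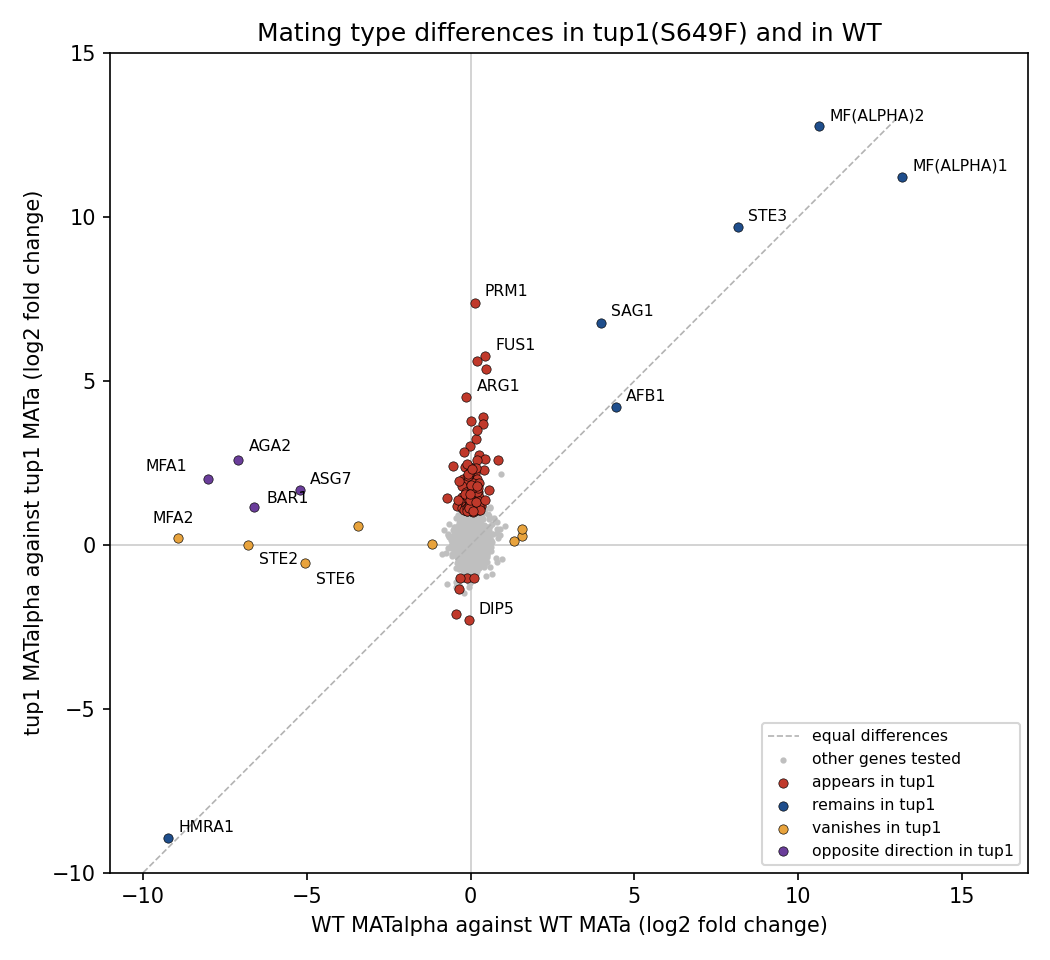
Log2 fold change of MATalpha over MATa in tup1 (vertical axis) against the same in WT (horizontal axis), 1 point per gene tested in both, with the genes that remain, vanish, are reversed or appear marked by colour. Most genes sit near 0 on both axes, and the dashed line marks equal differences. The a-specific genes lie far to the left, at −5.06 to −8.94 in WT, and the genes that appear lie near 0 on the horizontal axis and, but for 6 lower ones, above 0 on the vertical one.

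The a-specific genes carry the operator that alpha2 and Mcm1 share, and its sequence is shown here because these genes made up 7 of the 13 large differences that vanished or were reversed. Each line is a segment of 36 bases, 5′ to 3′, from the RefSeq S288C genome (build R64, the same as sacCer3), with the alpha2 half-site CATGTAA in capitals; the W303 strains may differ from it in sequence.
STE2 (chrVI:82347-82382, plus strand): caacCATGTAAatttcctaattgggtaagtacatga
STE6 (chrXI:46476-46511, minus strand): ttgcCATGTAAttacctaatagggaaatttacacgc
BAR1 (chrIX:322074-322109, plus strand): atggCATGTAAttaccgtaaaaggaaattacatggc
MFA1 (chrIV:1384941-1384976, minus strand): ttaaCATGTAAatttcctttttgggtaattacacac
MFA2 (chrXIV:352162-352197, minus strand): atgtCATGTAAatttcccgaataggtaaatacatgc
AGA2 (chrVII:437100-437135, minus strand): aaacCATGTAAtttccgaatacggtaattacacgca
ASG7 (chrX:101901-101936, plus strand): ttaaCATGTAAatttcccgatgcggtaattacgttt
The capitals read along the gene in STE2, STE6, BAR1 and AGA2 and on the opposite strand in MFA1, MFA2 and ASG7. In BAR1 the motif occurred 2 times, the second copy on the other strand in lower case. Searched on both strands in the 250 bases that run from 350 to 101 bases before the start codon, CATGTAA was found in front of 7 of 7 a-specific genes and in 206 of 5784 windows of all protein-coding genes (3.56%). A match is a description of the letters and not a measured binding site.

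In WT, all 7 a-specific genes were lower in MATalpha, with a median log2 difference of −6.79. In the mutant, 4 were higher, 1 was lower and 2 were not called, with a median of 1.15, and the interaction was called higher for all 7, with a median of 7.76. Their summed level was 2227 ± 436 CPM in tup1 MATalpha and 1825 ± 90.6 CPM in tup1 MATa, against 25.6 ± 0.600 CPM in WT MATalpha and 1834 ± 35.8 CPM in WT MATa (SD, n = 3 each). In RNA of a whole culture, a change in the share of cells that express a gene and a change in RNA per cell cannot be told apart.

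STE2, the receptor for alpha-factor (YFL026W, chromosome VI 82580 to 83875), had 701, 472 and 551 CPM in tup1 MATalpha and 656, 569 and 530.2 CPM in tup1 MATa. Its WT libraries stood at 5.90, 5.33 and 5.19 CPM in WT MATalpha and 608, 597 and 632 CPM in WT MATa. The 2 mutant groups overlapped and both lay around the level of WT MATa, while WT MATalpha was far below. The difference between the mutants was −0.02 ± 0.14 SE (adjusted p = 0.951), against −6.79 ± 0.07 SE in WT (adjusted p = 1.06e-42).

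MFA2 (YNL145W, chromosome XIV 352414 to 352530), which encodes the a-factor pheromone, had 803, 529 and 636 CPM in tup1 MATalpha and 516, 632 and 564 CPM in tup1 MATa. In WT it had 0.688, 0.420 and 0.742 CPM in WT MATalpha and 323, 302 and 319 CPM in WT MATa. Both mutant groups were above every WT library, they overlapped with each other, and their difference of 0.21 ± 0.14 SE was not called (adjusted p = 0.317). STE6 (YKL209C, chromosome XI 42423 to 46295), the transporter that exports a-factor, had 324, 260.1 and 300.3 CPM in tup1 MATalpha and 462, 428 and 419 CPM in tup1 MATa, and in WT 14.8, 16.4 and 16.9 CPM in WT MATalpha and 513, 539 and 539 CPM in WT MATa. It was the 1 a-specific gene that stayed lower in the mutant MATalpha strain, with no overlap, at −0.56 ± 0.10 SE (adjusted p = 0.00145), beside a WT difference of −5.06 ± 0.06 SE.

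The other 4 a-specific genes were higher in tup1 MATalpha than in tup1 MATa. AGA2 (YGL032C, chromosome VII 436570 to 436833), the adhesive subunit of a-agglutinin, had 265, 168 and 199.8 CPM in tup1 MATalpha and 38.5, 35.8 and 30.6 CPM in tup1 MATa, against 0.197, 0 and 0.445 CPM in WT MATalpha and 31.1, 25.7 and 35.1 CPM in WT MATa. Every tup1 MATalpha library exceeded all others, and the log2 difference was 2.60 ± 0.16 SE (adjusted p = 6.94e-07), against −7.09 in WT. MFA1 (YDR461W, chromosome IV 1385176 to 1385286), the second a-factor gene, had 142, 87.7 and 104 CPM in tup1 MATalpha and 24.0, 27.8 and 31.4 CPM in tup1 MATa, which is a difference of 2.01 ± 0.17 SE (adjusted p = 1.11e-05). In WT it had 3 counts over the MATalpha libraries and 859 over the MATa ones, a ratio of MATa over MATalpha of 292 with an exact 95% interval of 99.7 to 1421 that covers counting error only.

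BAR1 (YIL015W, chromosome IX 322342 to 324105), a secreted protease that degrades alpha-factor, had 439, 289 and 371 CPM in tup1 MATalpha and 191, 165 and 143 CPM in tup1 MATa, against 3.24, 2.94 and 2.97 CPM in WT MATalpha and 309, 302 and 306 CPM in WT MATa. The mutants did not overlap, and BAR1 was higher in tup1 MATalpha by 1.15 ± 0.15 SE (adjusted p = 0.000183). The tup1 MATa libraries all lay below those of WT MATa. ASG7 (YJL170C, chromosome X 101150 to 101779), which lowers signalling from the G protein beta subunit after mating, had 13.7, 12.6 and 13.1 CPM in tup1 MATalpha and 4.49, 4.25 and 3.78 CPM in tup1 MATa, a difference of 1.66 ± 0.18 SE (adjusted p = 1.1e-05). In WT it had 2 counts over the MATalpha libraries and 86 over the MATa ones, a ratio of MATa over MATalpha of 43.9 (exact 95% interval 11.8 to 368). The counts of 4 higher and 1 lower held under every setting tried, including the loss of any 1 mutant library.

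The alpha-specific genes kept their difference, and 2 of them widened it. All 5 were higher in MATalpha in both backgrounds, with a median log2 difference of 9.70 in tup1 and 8.16 in WT. SAG1 (YJR004C, chromosome X 442909 to 444861), which encodes alpha-agglutinin, had 6340.1, 4205 and 5339 CPM in tup1 MATalpha and 45.9, 50.8 and 49.4 CPM in tup1 MATa, and in WT 624, 641 and 735 CPM in WT MATalpha and 44.7, 40.1 and 42.7 CPM in WT MATa. The tup1 MATalpha libraries were the highest by a wide gap while the MATa groups of both backgrounds were low, and the difference was 6.77 ± 0.20 SE in tup1 and 3.97 ± 0.06 SE in WT, with an interaction of 2.79 ± 0.18 SE (adjusted p = 1.93e-09). STE3 (YKL178C, chromosome XI 113215 to 114627), the receptor for a-factor, had 919.7, 706 and 766 CPM in tup1 MATalpha and 0.680, 1.47 and 0.782 CPM in tup1 MATa, and in WT 456, 480.5 and 499 CPM in WT MATalpha and 2.27, 1.38 and 1.25 CPM in WT MATa. Its difference was 9.70 ± 0.21 SE in tup1, against 8.16 ± 0.09 SE in WT, with an interaction of 1.53 ± 0.42 SE (adjusted p = 0.0119).

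The interaction was not called for the other 3. MF(ALPHA)1 (YPL187W, chromosome XVI 193648 to 194145), the main gene for alpha-factor, had 1284, 803 and 1070.5 CPM in tup1 MATalpha and 1.09, 0 and 0.130 CPM in tup1 MATa, and its WT ratio of MATalpha over MATa was 10985 from 22439 and 2 counts (exact 95% interval 3041 to 90713). MF(ALPHA)2 (YGL089C, chromosome VII 344791 to 345153), the second alpha-factor gene, had 2088, 1399 and 1802 CPM in tup1 MATalpha and 0.408, 0.163 and 0.130 CPM in tup1 MATa, against 648, 719.6 and 753 CPM in WT MATalpha and 0.597, 0.377 and 0.277 CPM in WT MATa. Both were at or near 0 in every MATa library. The interaction of MF(ALPHA)2 was 2.12 ± 0.91 SE (adjusted p = 0.0987), and that of MF(ALPHA)1 −1.94 (adjusted p = 0.409). AFB1 (YLR040C, chromosome XII 228908 to 229582), a secreted barrier to a-factor made by MATalpha cells, had 530.2, 411 and 453 CPM in tup1 MATalpha and 21.0, 27.5 and 27.8 CPM in tup1 MATa. It differed by 4.20 ± 0.14 SE in tup1 (adjusted p = 1.09e-10), near its WT difference of 4.42 ± 0.06 SE, and its interaction of −0.22 ± 0.16 SE was not called (adjusted p = 0.313).

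**Figure D2:**
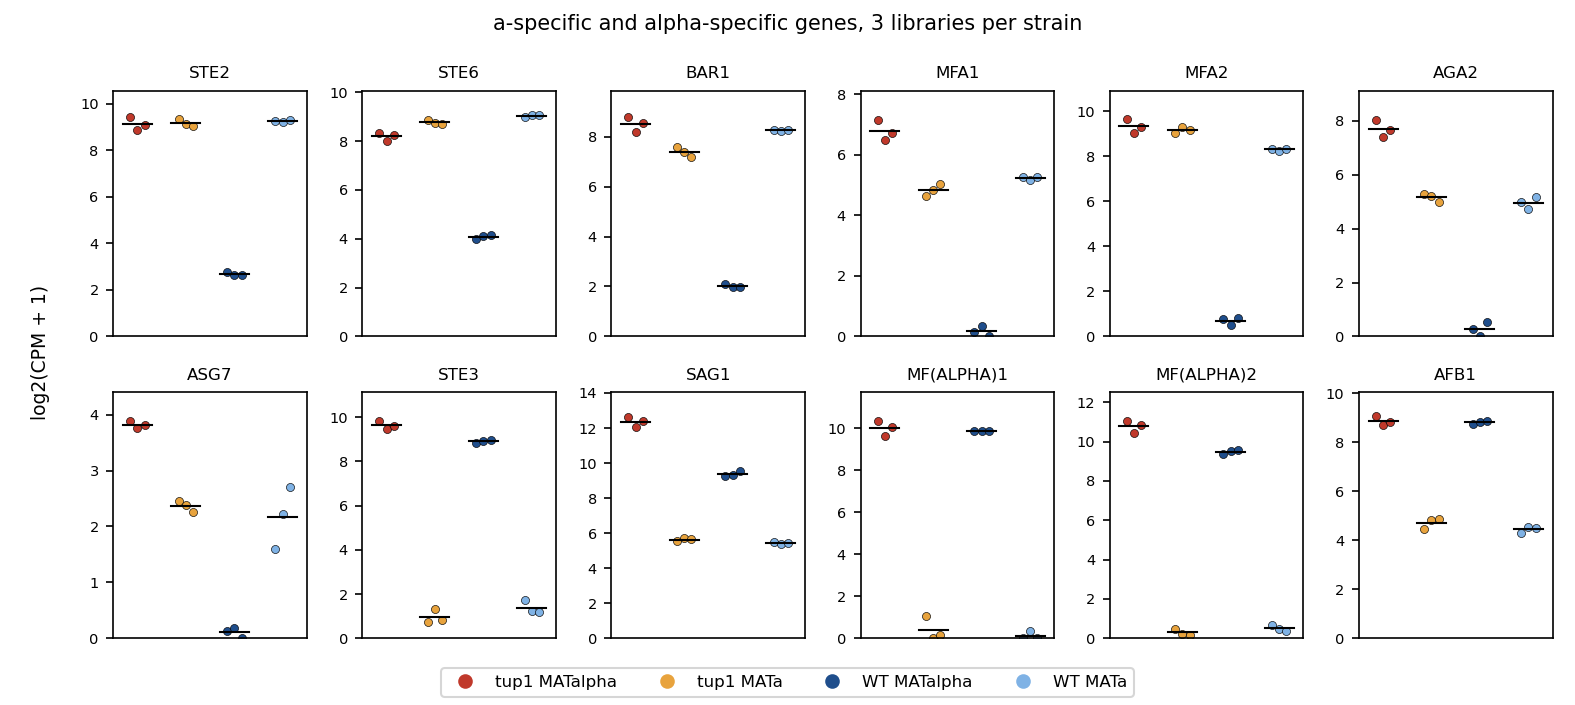
Levels of the a-specific and alpha-specific genes in each library as log2(CPM + 1) on the vertical axis, 1 panel per gene, with points for the 3 libraries of tup1 MATalpha, tup1 MATa, WT MATalpha and WT MATa and a bar at their mean. The a-specific genes are low in WT MATalpha alone, while the alpha-specific genes are high in both MATalpha groups.

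The mating type loci gave few counts. HMRA1, which encodes a1 and also takes the reads of the a1 gene at MAT, had 0 counts in the 3 tup1 MATalpha libraries and 59, 48 and 92 in the tup1 MATa libraries, so it was at least 58.0-fold lower in tup1 MATalpha, with the empty group set to a floor of 3 counts. In WT it was at least 76.6-fold lower in MATalpha. MATALPHA1, the gene of alpha1, had 14 counts in tup1 MATalpha and 1 in tup1 MATa, a ratio of 16.0 (exact 95% interval 2.44 to 677), and 17 counts in WT MATalpha against 0 in WT MATa. It overlaps YCR041W by 58 bases on the same strand, and both alpha genes have a second copy at the silent locus HML. Whether reads that match several places were counted is not stated, so levels of the alpha genes are uncertain. HMLALPHA1 and HMLALPHA2 were at 0 counts in all 12 libraries, and these genes, MATALPHA2 and HMRA2 were not tested.

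Outside the cell type genes, the vanished differences at genes above 10 CPM in WT MATalpha were those of BSC1 and PRM7, whose level was high in both mutants. BSC1 (YDL037C, chromosome IV 384601 to 385587), of unknown function, had 132, 109 and 153 CPM in tup1 MATalpha and 104, 108 and 119 CPM in tup1 MATa, against 30.0, 19.6 and 31.9 CPM in WT MATalpha and 7.88, 9.17 and 10.7 CPM in WT MATa. PRM7 (YDL039C, chromosome IV 381985 to 384081), a membrane protein regulated by pheromone, had 195, 142 and 199 CPM in tup1 MATalpha and 147, 181 and 166 CPM in tup1 MATa, against 35.8, 20.5 and 32.0 CPM in WT MATalpha and 10.4, 12.6 and 12.9 CPM in WT MATa. Every mutant library of both genes exceeded every WT library, and the mutant groups overlapped. By the positions given, PRM7 and BSC1 lie close together, and whether their differences are separate was not tested. The difference between the mutants was 0.26 ± 0.11 SE for BSC1 (adjusted p = 0.119) and 0.13 ± 0.13 SE for PRM7 (adjusted p = 0.51), against 1.57 and 1.33 in WT.

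The other 4 vanished differences were at levels under 10 CPM. CMI8, YNL146C-A and YNL146W lie beside a-factor genes: CMI8 is 238 bases from MFA1 on the opposite strand, and YNL146W is 397 bases from MFA2 on the same strand and 135 bases from YNL146C-A on the opposite one. CMI8 averaged 4.98 CPM in tup1 MATalpha and 4.95 CPM in tup1 MATa, against 1.30 CPM in WT MATalpha and 2.90 CPM in WT MATa. YNL146C-A averaged 7.02, 4.64, 0.244 and 2.93 CPM in the same order, so that, like the a-specific genes, it was low in WT MATalpha alone, with a difference of 0.58 ± 0.22 SE in tup1 (adjusted p = 0.0711) and −3.45 ± 0.48 SE in WT. Without tup1 MATa replicate 1 or tup1 MATalpha replicate 2 YNL146C-A was called higher in tup1, as BSC1 was without tup1 MATalpha replicate 2. Whether reads of MFA1 or MFA2 were counted in these neighbours was not tested. YNL146W went the other way in WT, at 1.57 ± 0.23 SE, and was at 0.48 ± 0.22 SE in tup1 (adjusted p = 0.133). YLL066C, a Y′ gene with near-identical copies at other telomeres, was large in WT at 1.97 ± 0.49 SE but had too few counts to be tested in tup1. YER137C, at 1.06 ± 0.29 SE in WT with under 4 CPM in each group, is the 1 WT difference that could not be placed.

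Among protein-coding genes, the widest differences that appeared were in genes induced by mating pheromone. All 22 genes of the pheromone-induced list were higher in tup1 MATalpha, beside a background of 14.0% of all genes tested, and 19 were at least 2-fold. Their median log2 difference was 2.54, where the median of all genes was −0.01. The range was 0.68 to 10.16, but its top, of PRM6, is a fitted value over a group with 0 counts. In WT, 3 of the 18 that could be tested were higher in MATalpha (AGA1, FUS1 and SST2). The interaction was called higher for all 22. Their summed level was 4567 ± 1120 CPM in tup1 MATalpha and 648 ± 28.7 CPM in tup1 MATa, against 689 ± 27.0 CPM in WT MATalpha and 644 ± 11.4 CPM in WT MATa (SD, n = 3 each). For all 22, the lowest tup1 MATalpha library was above the highest of the 6 WT libraries, beside 1737 of all 5620 genes tested. The tup1 MATa libraries overlapped WT for 15, lay above it for 4 and below it for 3. That split is near the one over all genes, of 3327, 1303 and 990. Within tup1 MATalpha, replicate 1 was highest for 20 and replicate 2 lowest for all 22. Without either of these libraries all 22 were still called higher.

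A pair of promoter windows is printed because FUS1 and PRM1 are among the genes that moved most. They run from 350 to 101 bases before the start codon in R64 (RefSeq), on the strand of the gene, with each pheromone response element TGAAACA, the letters Ste12 is known to bind, or its other strand TGTTTCA, in capitals.
FUS1 (chrIII:71453-71702, plus strand): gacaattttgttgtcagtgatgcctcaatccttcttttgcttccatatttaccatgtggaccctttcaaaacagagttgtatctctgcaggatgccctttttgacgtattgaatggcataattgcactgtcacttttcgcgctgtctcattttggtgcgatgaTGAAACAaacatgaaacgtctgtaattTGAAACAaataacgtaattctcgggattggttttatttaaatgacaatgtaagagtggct
PRM1 (chrXIV:110567-110816, plus strand): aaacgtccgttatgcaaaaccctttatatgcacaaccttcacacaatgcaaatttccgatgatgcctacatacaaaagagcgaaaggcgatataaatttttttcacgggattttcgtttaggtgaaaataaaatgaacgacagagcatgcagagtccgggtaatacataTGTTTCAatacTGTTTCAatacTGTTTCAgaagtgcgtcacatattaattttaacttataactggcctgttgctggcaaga
FUS1 held the motif 2 times on its own strand and PRM1 3 times on the other. In the same windows TGAAACA was present for 12 of 22 pheromone-induced genes (54.5%), 6 of 7 a-specific genes and 351 of 5784 genes in all (6.07%). Among the genes that appeared higher in tup1 MATalpha and had a window it was present for 21 of 137 (15.3%). These 21 include the 12 pheromone-induced genes already counted.

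FUS1 (YCL027W, chromosome III 71803 to 73341), a membrane protein of cell fusion, had 209, 123 and 163 CPM in tup1 MATalpha and 2.59, 2.45 and 4.04 CPM in tup1 MATa. In WT it had 18.0, 10.9 and 17.8 CPM in WT MATalpha and 12.3, 11.2 and 11.2 CPM in WT MATa. The tup1 MATalpha libraries were above all others and the tup1 MATa libraries below all others, at a difference of 5.75 ± 0.26 SE (adjusted p = 2.91e-07). PRM1 (YNL279W, chromosome XIV 110917 to 112902), which acts in fusion of the plasma membranes of mating cells, had 519, 322 and 422 CPM in tup1 MATalpha and 2.59, 2.94 and 2.09 CPM in tup1 MATa, against 2.95, 4.34 and 3.41 CPM in WT MATalpha and 2.99, 2.76 and 4.02 CPM in WT MATa. It stood far above the rest in tup1 MATalpha alone, with a difference of 7.39 ± 0.23 SE (adjusted p = 1.54e-09). FIG2 (YCR089W, chromosome III 267434 to 272263), a cell wall adhesin of mating cells, had 1764, 976 and 1141 CPM in tup1 MATalpha and 24.6, 33.5 and 22.0 CPM in tup1 MATa, a difference of 5.61 ± 0.27 SE (adjusted p = 2.75e-07).

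AGA1 (YNR044W, chromosome XIV 703699 to 705876), the anchor subunit of a-agglutinin, which haploids of either mating type can make, had 805, 437 and 526 CPM in tup1 MATalpha and 12.7, 16.0 and 15.0 CPM in tup1 MATa, against 20.2, 20.6 and 26.3 CPM in WT MATalpha and 17.2, 13.9 and 16.8 CPM in WT MATa. The mutant groups were far apart at 5.35 ± 0.25 SE (adjusted p = 4.55e-07), while WT differed by 0.47. FIG1 (YBR040W, chromosome II 316968 to 317864), needed for calcium uptake during mating, had 233, 144 and 182 CPM in tup1 MATalpha and 0.272, 0 and 0.391 CPM in tup1 MATa, and PRM2 and PRM3, the second a nuclear envelope protein of nuclear fusion, averaged 70.0 and 21.9 CPM in tup1 MATalpha, against 0.573 and 0.298 CPM in tup1 MATa. All 3 were close to 0 outside tup1 MATalpha, with differences of 9.52 ± 0.35 SE, 6.90 ± 0.31 SE and 6.18 ± 0.35 SE. PRM6, a potassium transporter, had 395 counts in tup1 MATalpha and 0 in tup1 MATa, which is at least 151-fold higher.

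KAR4, a transcription factor of nuclear fusion, had 83.3, 55.2 and 80.3 CPM in tup1 MATalpha and 10.2, 6.38 and 10.0 CPM in tup1 MATa, and FUS2, a cell fusion protein, had 82.4, 46.9 and 63.9 CPM in tup1 MATalpha and 4.22, 4.74 and 5.21 CPM in tup1 MATa. Both stood far above the rest in tup1 MATalpha alone. In WT MATalpha and WT MATa, KAR4 averaged 12.3 and 12.8 CPM and FUS2 averaged 5.26 and 5.17 CPM. Their differences were 3.02 ± 0.20 SE and 3.76 ± 0.22 SE. SST2, which switches the pheromone G protein off, had 583, 354 and 497 CPM in tup1 MATalpha and 90.5, 99.2 and 94.2 CPM in tup1 MATa, so its tup1 MATa libraries were also below WT, which averaged 184 CPM in MATalpha and 163 CPM in MATa.

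**Figure D3:**
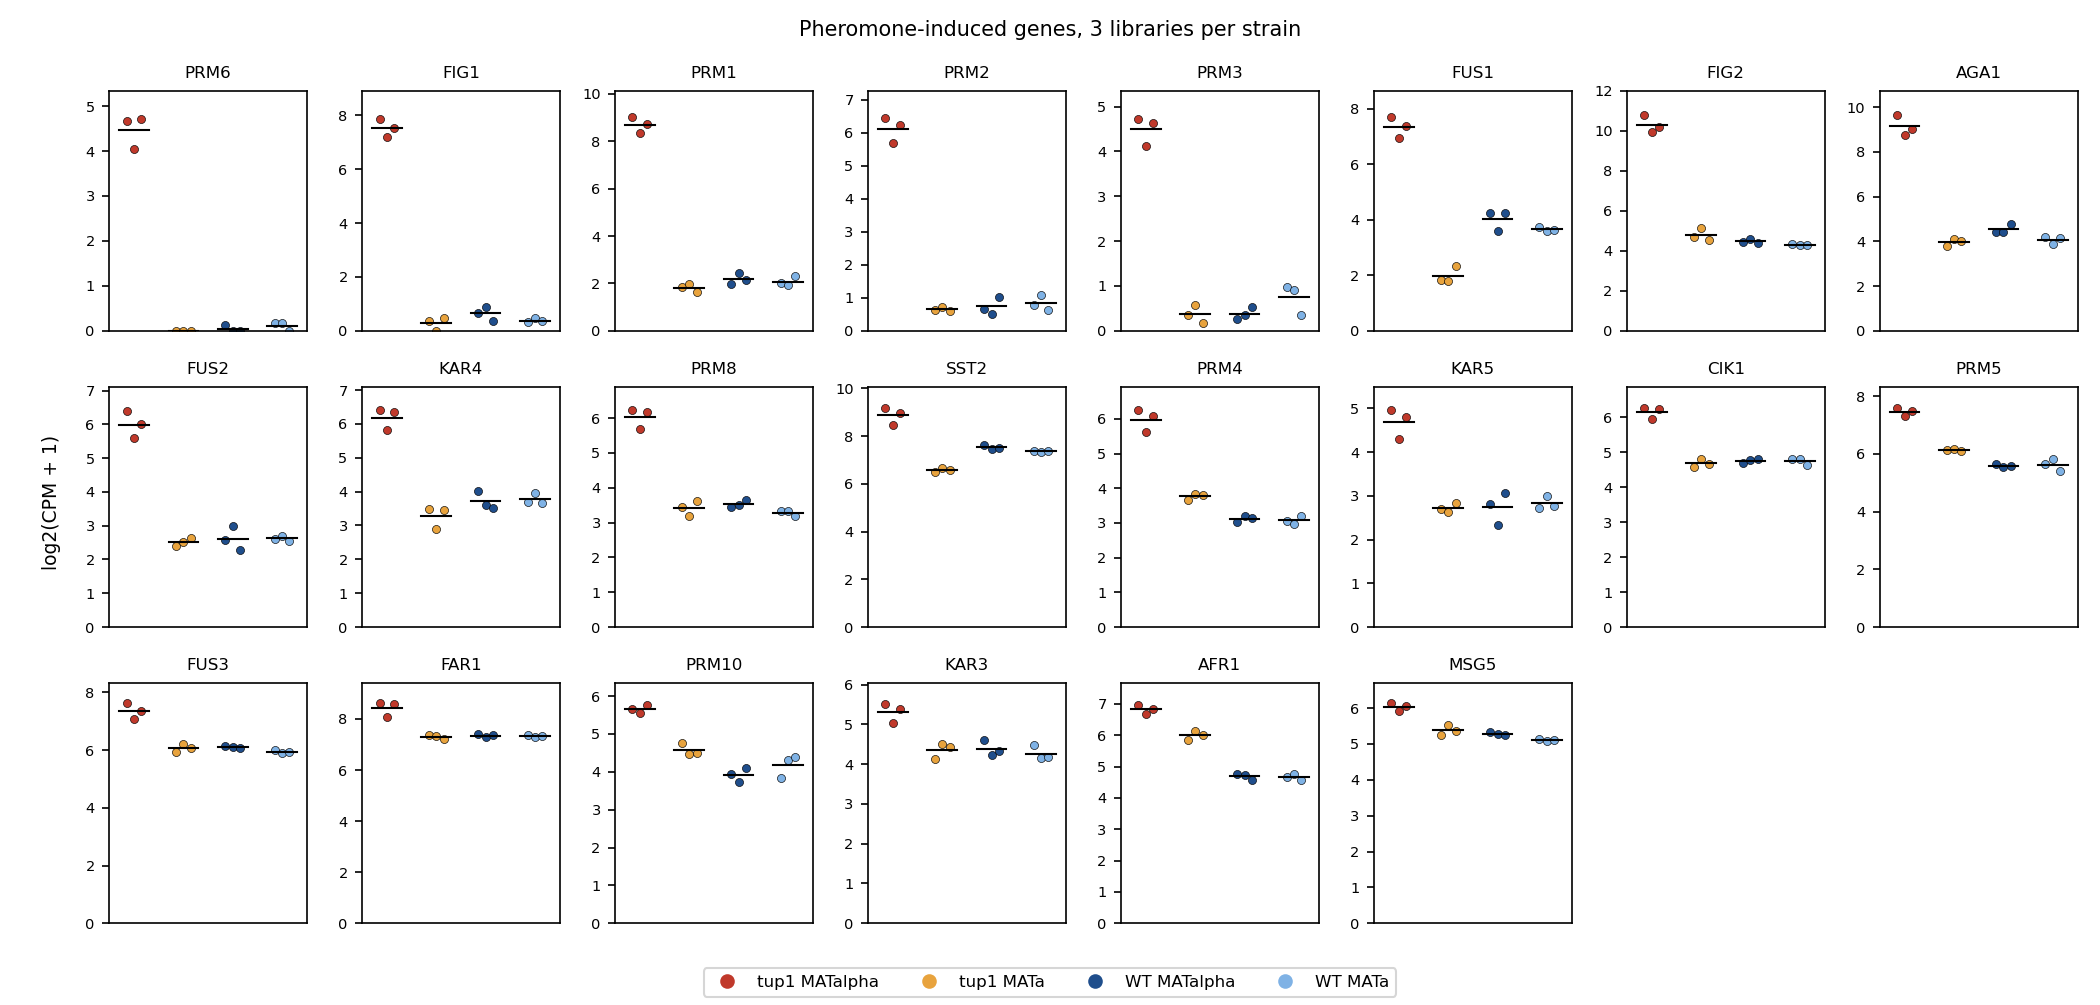
Levels of the 22 pheromone-induced genes in each library as log2(CPM + 1) on the vertical axis, 1 panel per gene, with points for the 3 libraries of each of the 4 groups and a bar at their mean. For all 22 genes the 3 tup1 MATalpha points lie above the 3 tup1 MATa points and above all 6 WT points.

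Of the signalling pathway itself, fewer genes were called. Of 22 pathway genes, 9 were higher and 1 lower in tup1 MATalpha, beside 14.0% and 9.57% of all genes, with a median of 0.24, and the interaction was called higher for 7 and lower for 3. FUS3 (YBL016W, chromosome II 192451 to 193512), the MAP kinase of mating, had 197, 136 and 164 CPM in tup1 MATalpha and 60.4, 73.6 and 66.5 CPM in tup1 MATa, at 1.32 ± 0.13 SE (adjusted p = 9.23e-06), and FAR1 (YJL157C, chromosome X 123836 to 126328), which arrests the cell cycle in response to pheromone, had 398, 268 and 382 CPM in tup1 MATalpha and 163, 159 and 149 CPM in tup1 MATa, at 1.17 ± 0.13 SE (adjusted p = 3.81e-05). Neither overlapped between the mutants, and both were at WT levels in tup1 MATa, with FUS3 at 67.5 CPM in WT MATalpha and 60.7 CPM in WT MATa. Smaller rises were called for DIG2, an inhibitor of Ste12, at 0.88 ± 0.20 SE, for MSG5, a phosphatase of Fus3, at 0.68 ± 0.11 SE, for GPA1, the G protein alpha subunit, at 0.65 ± 0.12 SE, for TEC1, a transcription factor of filamentous growth, at 0.60 ± 0.13 SE, for KSS1, the second MAP kinase, at 0.43 ± 0.13 SE, and for STE12 at 0.41 ± 0.11 SE (adjusted p = 0.0179). DIG1, the other inhibitor of Ste12, was lower at −0.30 ± 0.09 SE (adjusted p = 0.0223), and its call was lost in 6 of 13 settings, those of KSS1 and STE12 in 3 each. Without tup1 MATa replicate 1 the number lower was 4.

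Among 11 haploid-specific genes, 6 were higher (FUS3, FAR1, GPA1, AXL1, STE12 and RME1) and HO was lower, beside 14.0% and 9.57% of all genes. STE4, STE5, STE18 and NEJ1 were not called. AXL1, a protease that matures a-factor and marks the haploid bud site, was higher by 0.47 ± 0.10 SE (adjusted p = 0.00311). RME1, a repressor of meiosis, was higher by 0.25 ± 0.08 SE (adjusted p = 0.0288), a call that was lost in 8 of 13 settings. HO (YDL227C, chromosome IV 46271 to 48031), the endonuclease that starts mating type switching, had 53.8, 73.2 and 65.5 CPM in tup1 MATalpha and 117, 112 and 125 CPM in tup1 MATa, against 71.6, 62.8 and 67.6 CPM in WT MATalpha and 66.5, 60.2 and 61.8 CPM in WT MATa. The tup1 MATa libraries were the highest and tup1 MATalpha was at the level of WT, with a difference of −0.87 ± 0.10 SE (adjusted p = 3.83e-05) and an interaction of −0.97 ± 0.13 SE (adjusted p = 1.79e-05).

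The second group of differences that appeared was in amino acid biosynthesis. Of 32 genes of the list, which are known as targets of the activator Gcn4, 31 were higher in tup1 MATalpha, beside 14.0% of all genes, with a median log2 difference of 0.75, and LYS20, at 0.15 ± 0.15 SE, was not called (adjusted p = 0.49). In WT 3 were higher and 9 lower in MATalpha, beside 9.39% and 10.3% of all genes, and the interaction was called higher for 31. The summed level was 21790 ± 1280 CPM in tup1 MATalpha and 12920 ± 1280 CPM in tup1 MATa, against 16110 ± 255 CPM in WT MATalpha and 16360 ± 289 CPM in WT MATa (SD, n = 3 each), so both mutants stood off the WT level, on opposite sides of it. Gene by gene, tup1 MATalpha lay above all 6 WT libraries for 24 of the 32 and tup1 MATa below all of them for 18, with both true of 10. Over all 5620 genes tested these positions were found for 1737, 990 and 43. GCN4 itself was not called, at 0.28 ± 0.11 SE (adjusted p = 0.0801).

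Windows of ARG1 and of SNZ1, a gene outside the list, are printed because ARG1 differed most in this group and SNZ1 was among the genes that differed most outside the lists. They span 350 to 101 bases before the start codon in R64 (RefSeq), on the strand of the gene, with the Gcn4 site TGACTCA in capitals.
ARG1 (chrXV:218861-219110, plus strand): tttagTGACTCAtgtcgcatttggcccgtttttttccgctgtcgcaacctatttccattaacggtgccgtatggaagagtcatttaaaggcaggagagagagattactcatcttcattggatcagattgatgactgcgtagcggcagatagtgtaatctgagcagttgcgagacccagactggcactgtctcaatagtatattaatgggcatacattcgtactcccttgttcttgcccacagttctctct
SNZ1 (chrXIII:458058-458307, plus strand): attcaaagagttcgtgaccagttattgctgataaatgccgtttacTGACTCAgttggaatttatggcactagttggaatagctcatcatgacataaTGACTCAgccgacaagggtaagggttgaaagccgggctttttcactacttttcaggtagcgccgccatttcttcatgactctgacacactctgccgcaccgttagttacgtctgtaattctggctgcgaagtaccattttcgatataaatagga
ARG1 held the motif 1 time and SNZ1 2 times. TGACTCA was present in the windows of 20 of 32 amino acid biosynthesis genes (62.5%), 4 of 18 genes of methionine metabolism (22.2%) and 151 of 5784 genes in all (2.61%). Among the genes that appeared higher in tup1 MATalpha it was present for 24 of 137 (17.5%). These 24 include amino acid biosynthesis genes already counted, such as ARG1 and HIS4.

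ARG1 (YOL058W, chromosome XV 219211 to 220473), argininosuccinate synthetase, had 321, 254 and 216 CPM in tup1 MATalpha and 10.9, 10.3 and 13.4 CPM in tup1 MATa. In WT it had 45.0, 49.2 and 47.6 CPM in WT MATalpha and 54.1, 49.6 and 51.7 CPM in WT MATa. The WT groups were close to each other and lay between the 2 mutant groups, which differed by 4.51 ± 0.16 SE (adjusted p = 2.02e-09). ARG4, argininosuccinate lyase, had 522, 398 and 445 CPM in tup1 MATalpha and 92.0, 91.0 and 82.9 CPM in tup1 MATa, against 138, 139.9 and 137 CPM in WT MATalpha and 136, 141 and 143 CPM in WT MATa. ARG3, ornithine carbamoyltransferase, had 55.1, 37.1 and 33.9 CPM in tup1 MATalpha and 8.71, 7.52 and 7.95 CPM in tup1 MATa, and HIS4, an enzyme of histidine synthesis, had 455, 353 and 349.9 CPM in tup1 MATalpha and 93.8, 64.6 and 78.9 CPM in tup1 MATa. All 3 showed the order of ARG1, with tup1 MATalpha above and tup1 MATa below the WT means, and differed between the mutants by 2.37 ± 0.11 SE, 2.38 ± 0.19 SE and 2.29 ± 0.14 SE.

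Methionine and S-adenosylmethionine genes were higher in tup1 MATalpha in 13 of 18, beside 14.0% of all genes, with a median of 0.92. WT had 5 higher and 5 lower, beside 9.39% and 10.3% of all genes, and the interaction was called higher for 15. SUL1, a sulfate permease, had 40.8, 21.3 and 32.6 CPM in tup1 MATalpha and 5.04, 5.88 and 4.95 CPM in tup1 MATa. SUL2, the other sulfate permease, had 41.4, 22.8 and 23.2 CPM in tup1 MATalpha and 8.98, 6.38 and 7.95 CPM in tup1 MATa. Neither overlapped between the mutants, and they were higher by 2.58 ± 0.24 SE and 1.89 ± 0.25 SE. STR3, cystathionine beta-lyase, was higher by 1.46 ± 0.12 SE, and MET10, a subunit of sulfite reductase, by 1.37 ± 0.13 SE. For 15 of the 18 genes tup1 MATa lay below all 6 WT libraries, and for 7 tup1 MATalpha lay above them, beside 990 and 1737 of all 5620 genes.

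**Figure D4:**
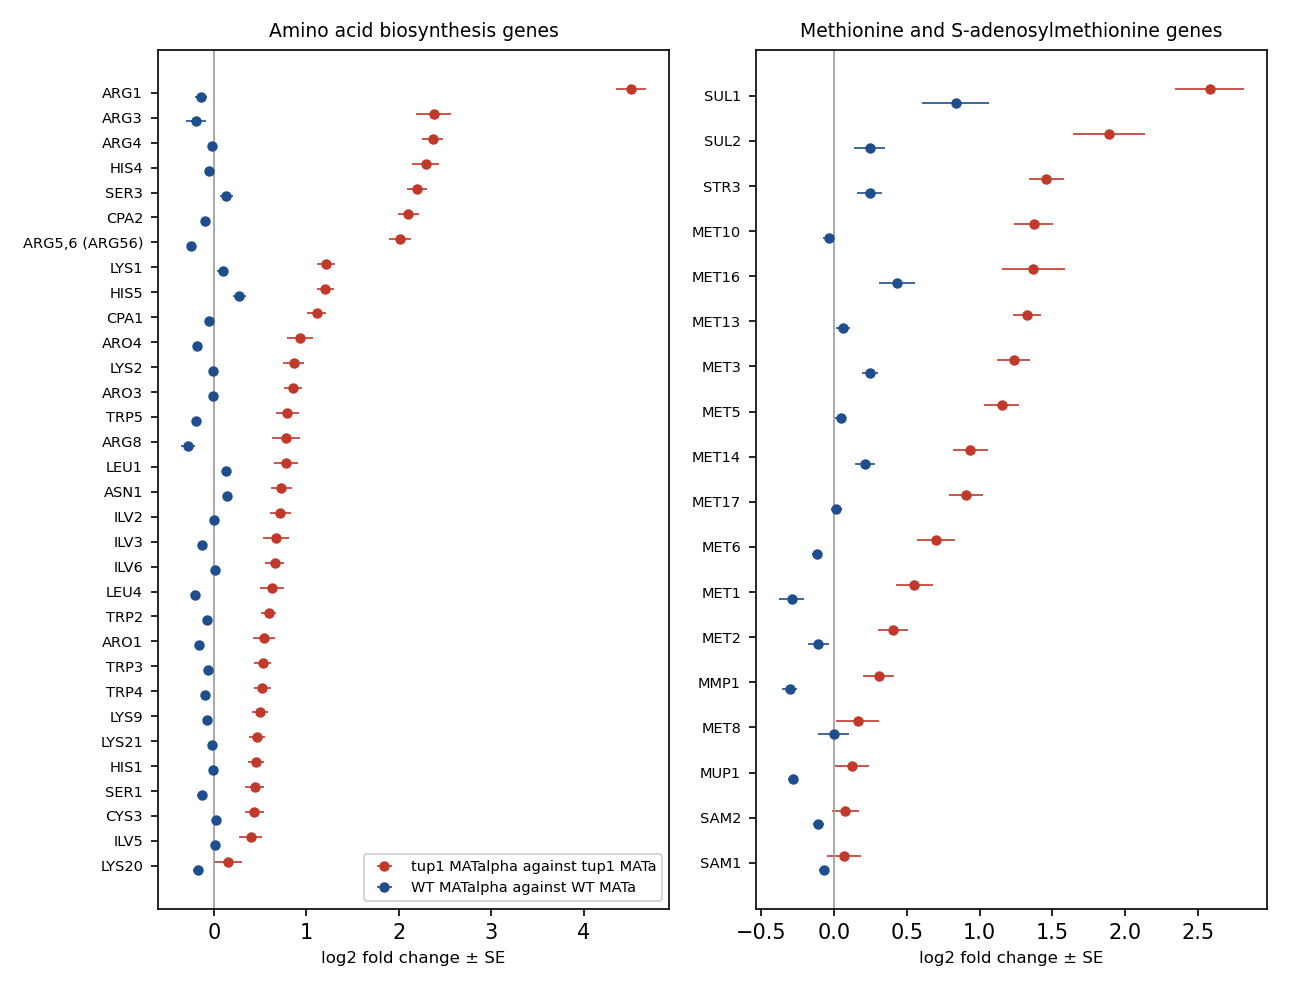
Log2 fold change of MATalpha over MATa with its SE (horizontal axis) for each amino acid gene (left) and methionine gene (right), in tup1 and in WT. Most tup1 points lie to the right of 0 and most WT points closer to 0, with ARG1 and SUL1 at the top at 4.51 and 2.58 in tup1.

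Outside the lists, the protein-coding genes that differed most included SNZ1 and SNO1, neighbours 449 bases apart that encode the enzymes of vitamin B6 synthesis. SNZ1 (YMR096W, chromosome XIII 458408 to 459301) had 339, 265 and 282 CPM in tup1 MATalpha and 29.8, 23.9 and 25.0 CPM in tup1 MATa, against 25.2, 21.4 and 23.0 CPM in WT MATalpha and 19.8, 21.2 and 20.7 CPM in WT MATa, and SNO1 (YMR095C, chromosome XIII 457285 to 457959) had 72.7, 57.4 and 59.7 CPM in tup1 MATalpha and 2.86, 2.94 and 4.56 CPM in tup1 MATa. For SNZ1 the tup1 MATa libraries were close to WT and the tup1 MATalpha libraries far above, and the differences were 3.50 ± 0.12 SE and 4.18 ± 0.17 SE. GRX3, a glutaredoxin of iron sensing, had 485, 329.7 and 337 CPM in tup1 MATalpha and 38.2, 43.5 and 41.2 CPM in tup1 MATa, against 57.4, 55.2 and 54.0 CPM in WT MATalpha and 51.6, 48.6 and 49.1 CPM in WT MATa, a difference of 3.24 ± 0.15 SE. At lower levels came CSS1 at 3.70 ± 0.23 SE, DPA10 at 3.89 ± 0.26 SE and YNL042W-B at 4.35 ± 0.24 SE.

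YNL042W-B overlaps the transfer RNA gene YNCN0009W by 83 bases on the same strand, so its reads may belong to either, and GRX3 lies 223 bases from a transfer RNA gene and 572 bases from a Ty element. Of the genes named for size, 4 outside the lists were transfer RNAs: tQ(UUG)D2, tA(AGC)P, tF(GAA)D and tH(GUG)E2. They averaged 16.9, 18.3, 18.1 and 15.8 CPM in tup1 MATalpha, against 0.0434, 0.289, 0.489 and 1.04 CPM in tup1 MATa. tQ(UUG)D2 had 308 and 1 counts in these groups, a ratio of 352 (exact 95% interval 62.8 to 13964), and tR(ACG)L had 65 and 1, a ratio of 74.4 (12.9 to 2982). Transfer RNA genes have near-identical copies, so the copy that was read is uncertain, and 6 of the 149 differences that appeared were transfer RNAs.

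The 6 that appeared lower in tup1 MATalpha were DIP5, RRT5, CHA1, HTB2, SPS4 and UTR2. DIP5 (YPL265W, chromosome XVI 41043 to 42869), the permease for glutamate and aspartate, had 24.5, 23.8 and 29.7 CPM in tup1 MATalpha and 128, 134 and 123 CPM in tup1 MATa, against 310.1, 308 and 335 CPM in WT MATalpha and 336, 341 and 319 CPM in WT MATa. Both mutants were below WT, tup1 MATalpha more so, and differed by −2.29 ± 0.10 SE (adjusted p = 2.02e-09). CHA1, which breaks down serine and threonine, had 17.8, 30.1 and 29.7 CPM in tup1 MATalpha and 66.5, 70.9 and 62.4 CPM in tup1 MATa, a difference of −1.34 ± 0.15 SE (adjusted p = 4.24e-05). HTB2, a histone H2B gene, had 149.9, 265 and 209 CPM in tup1 MATalpha and 492, 402 and 387 CPM in tup1 MATa, at −1.03 ± 0.18 SE (adjusted p = 0.00201), and UTR2, a cell wall chitin transglycosylase, averaged 271 ± 43.0 CPM in tup1 MATalpha and 548 ± 19.0 CPM in tup1 MATa, at −1.01 ± 0.11 SE. RRT5 and SPS4, a sporulation gene, were under 15 CPM in every group, at −2.11 ± 0.40 SE and −1.02 ± 0.19 SE. Other genes among the lowest outside the lists were AQY1, the spore water channel, at −1.29 ± 0.27 SE, SNF11, a subunit of the SWI/SNF remodeller, at −0.96 ± 0.14 SE, PLB2, a phospholipase, at −0.95 ± 0.15 SE, BUD9, a bud site protein, at −0.91 ± 0.13 SE, TKL2, a transketolase, at −0.90 ± 0.21 SE, and YGK1 at −0.83 ± 0.15 SE. The interaction was not called for AQY1 (adjusted p = 0.219) and TKL2 (adjusted p = 0.241), and both tup1 calls were lost without tup1 MATa replicate 2, that of AQY1 also without tup1 MATa replicate 1.

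Respiration and ribosome biogenesis genes differed by small amounts in opposite directions. Of 33 respiration genes, 17 were higher in tup1 MATalpha, beside 14.0% of all genes, and the other 16 were not called, with a median of 0.28. In WT 20 were lower in MATalpha, beside 10.3% of all genes, and the interaction was called higher for 26. ACO1, mitochondrial aconitase, was higher by 0.68 ± 0.14 SE, IDH2 and IDH1, isocitrate dehydrogenase, by 0.62 ± 0.10 SE and 0.60 ± 0.10 SE, and CIT1, citrate synthase, by 0.56 ± 0.09 SE. The count of 17 became 9 without tup1 MATa replicate 2, 11 with upper-quartile scaling and 23 without tup1 MATa replicate 1. Of 30 ribosome biogenesis genes, 15 were lower, beside 9.57% of all genes, and 15 not called, with a median of −0.30. The interaction was called lower for 20. The 15 lower became 10 without tup1 MATalpha replicate 3 and 22 in the fit on all 12 libraries. RRP5 at −0.54 ± 0.10 SE, YTM1 at −0.49 ± 0.08 SE, UTP4 at −0.49 ± 0.08 SE and RRP9 at −0.48 ± 0.10 SE, all of ribosome assembly, were the most changed. Below the 9.57% of all genes, ribosomal protein genes had 3 of 138 called lower (RPS27A at −0.40, RPS7B at −0.35 and RPL31B at −0.29). That count became 5 higher and 3 lower without tup1 MATa replicate 1. It was 0 without tup1 MATalpha replicate 1 and 17 lower in the fit on all 12 libraries.

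Lists of genes that Tup1-Cyc8 is known to repress outside mating are read here against the 14.0% of all genes called higher and the 9.57% called lower. Of 36 glucose-repressed genes, 15 were higher and 2 lower in tup1 MATalpha, with ADH2, alcohol dehydrogenase, at 1.97 ± 0.36 SE, POT1, the thiolase of fatty acid oxidation, at 1.73 ± 0.16 SE, SFC1, a succinate and fumarate carrier, at 1.48 ± 0.32 SE and ADY2, an acetate transporter, at 1.24 ± 0.36 SE. The interaction was called for POT1 at 2.69 ± 0.76 SE and not for ADH2, SFC1 or ADY2, and the tup1 calls of ADH2 and ADY2 were each lost in 2 of 13 settings: without tup1 MATa replicate 1 or 3 for ADH2, and without tup1 MATa replicate 2 or tup1 MATalpha replicate 3 for ADY2. PIR3, a cell wall protein, averaged 521 ± 34.9 CPM in tup1 MATalpha and 257 ± 25.6 CPM in tup1 MATa, against 8.18 CPM in WT MATalpha and 7.47 CPM in WT MATa, so the mutants were both far above WT and differed by 1.03 ± 0.10 SE. HUG1, the 1 gene called of 6 that Rfx1 represses, was at 0.95 ± 0.10 SE, and the interaction was called for 0 of the 6. With DESeq2 2 of them were called higher, and without tup1 MATa replicate 1 it was 3. FLO10, a flocculin and the 1 called of 6 tested of its list, was at 0.76 ± 0.09 SE. Of 10 osmotic genes 3 were higher, ALD2 at 1.11 ± 0.12 SE, ENA1 at 0.61 ± 0.10 SE and GPD1 at 0.39 ± 0.09 SE. Of 19 hypoxic genes 2 were higher, or 4 without tup1 MATa replicate 1, PDR11 at 0.37 ± 0.09 SE and TIR3 at 0.30 ± 0.08 SE. None of 7 galactose genes was called by edgeR in the fit on the 6 mutant libraries or by DESeq2, with 2 at an unadjusted p under 0.05. In the fit on all 12 libraries and without tup1 MATa replicate 1, 2 were called higher, and 1 without tup1 MATalpha replicate 1, and GAL7 had the largest difference at 0.38 ± 0.34 SE. Of 20 genes for Tup1-Cyc8 and its partners, SUT1 at 0.47 ± 0.11 SE and NRG1 at 0.45 ± 0.11 SE were higher and 3 were lower, among them MIG3 at −0.61 ± 0.13 SE and PHD1 at −0.43 ± 0.12 SE, whose call was lost in 4 of 13 settings. Without tup1 MATa replicate 1 the number lower was 8. The tup1 counts of the hypoxic, Rfx1, flocculin and Tup1-Cyc8 partner lists lie near the shares of all genes. In WT, 8 of the 20 Tup1-Cyc8 and partner genes were higher in MATalpha and 0 lower, beside 9.39% and 10.3% of all genes. For these 20 the interaction was called lower for 7 and higher for 0, beside 11.5% and 12.4% of all genes.

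Of 27 general stress genes, 11 were higher and 2 lower, beside 14.0% and 9.57% of all genes, or 6 lower without tup1 MATa replicate 1. GPH1, glycogen phosphorylase, was at 1.04 ± 0.13 SE, NTH1, a trehalase, at 0.81 ± 0.10 SE, YGP1, a secreted glycoprotein, at 0.68 ± 0.12 SE, and CTT1, catalase, at −0.70 ± 0.14 SE. Meiotic genes had 6 higher and 1 lower of 15 tested, at low levels, and the same shares of all genes apply. IME1, the inducer of meiosis, averaged 19.6 ± 1.19 CPM in tup1 MATalpha and 8.14 ± 1.21 CPM in tup1 MATa, a difference of 1.28 ± 0.15 SE, and SPR3, a sporulation septin, was at 3.37 ± 0.63 SE, SPO11, which makes meiotic breaks, at 1.88 ± 0.31 SE, and SPS1, a sporulation kinase, at 1.18 ± 0.24 SE. The sporulation marker DIT1 was not called, at −0.12 ± 0.12 SE (adjusted p = 0.523), and NDT80, the activator of middle sporulation genes, averaged 1.25 CPM in tup1 MATalpha and 1.87 CPM in tup1 MATa. Phosphate genes had 3 higher and 5 lower of 17, beside 14.0% and 9.57% of all genes. In WT, 2 of the 17 were higher in MATalpha and 7 lower, beside 9.39% and 10.3% of all genes. In tup1, PHO5, an acid phosphatase, was at 1.20 ± 0.16 SE and GDE1, a phosphodiesterase, at 0.86 ± 0.10 SE. GIT1, a glycerophosphoinositol permease, was at −0.80 ± 0.18 SE, and PHO12, which shares reads with PHO11, at −0.73 ± 0.09 SE.

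Of 21 iron genes, 2 were higher and 2 lower, beside 14.0% and 9.57% of all genes, with HMX1, a heme oxygenase, at 0.82 ± 0.12 SE, ISU1, an iron-sulfur scaffold, at 0.73 ± 0.09 SE, FTR1, the iron permease, at −0.75 ± 0.17 SE and FRE4, a reductase, at −0.62 ± 0.12 SE. The number lower in tup1 was 9 without tup1 MATalpha replicate 2. In WT, 2 of the 21 iron genes were higher in MATalpha and 9 lower, beside 9.39% and 10.3% of all genes. The interaction was called higher for 2 of them and lower for 2. Of 16 genes of cell separation, 2 were higher and 5 lower, with CHS1, a chitin synthase, at 0.83 ± 0.10 SE, and DSE2 and EGT2, daughter cell wall enzymes, at −0.54 ± 0.10 SE and −0.52 ± 0.12 SE. Of 20 genes of G1/S, 5 were higher and 4 lower, beside 14.0% and 9.57% of all genes. The 4 lower became 1 without tup1 MATa replicate 2 or tup1 MATalpha replicate 1 or 3. The cyclins PCL2, CLN3 and CLN2 were at 1.44 ± 0.13 SE, 0.93 ± 0.11 SE and 0.54 ± 0.10 SE. SVS1, a cell wall protein, was at 0.79 ± 0.13 SE. Of 6 genes of the strain markers, LEU2 was at 0.79 ± 0.09 SE and HIS3 at 0.70 ± 0.15 SE, both in strains that carry the same mutant alleles. LEU2 and HIS3 also belong to the amino acid synthesis pathways.

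**Figure D5:**
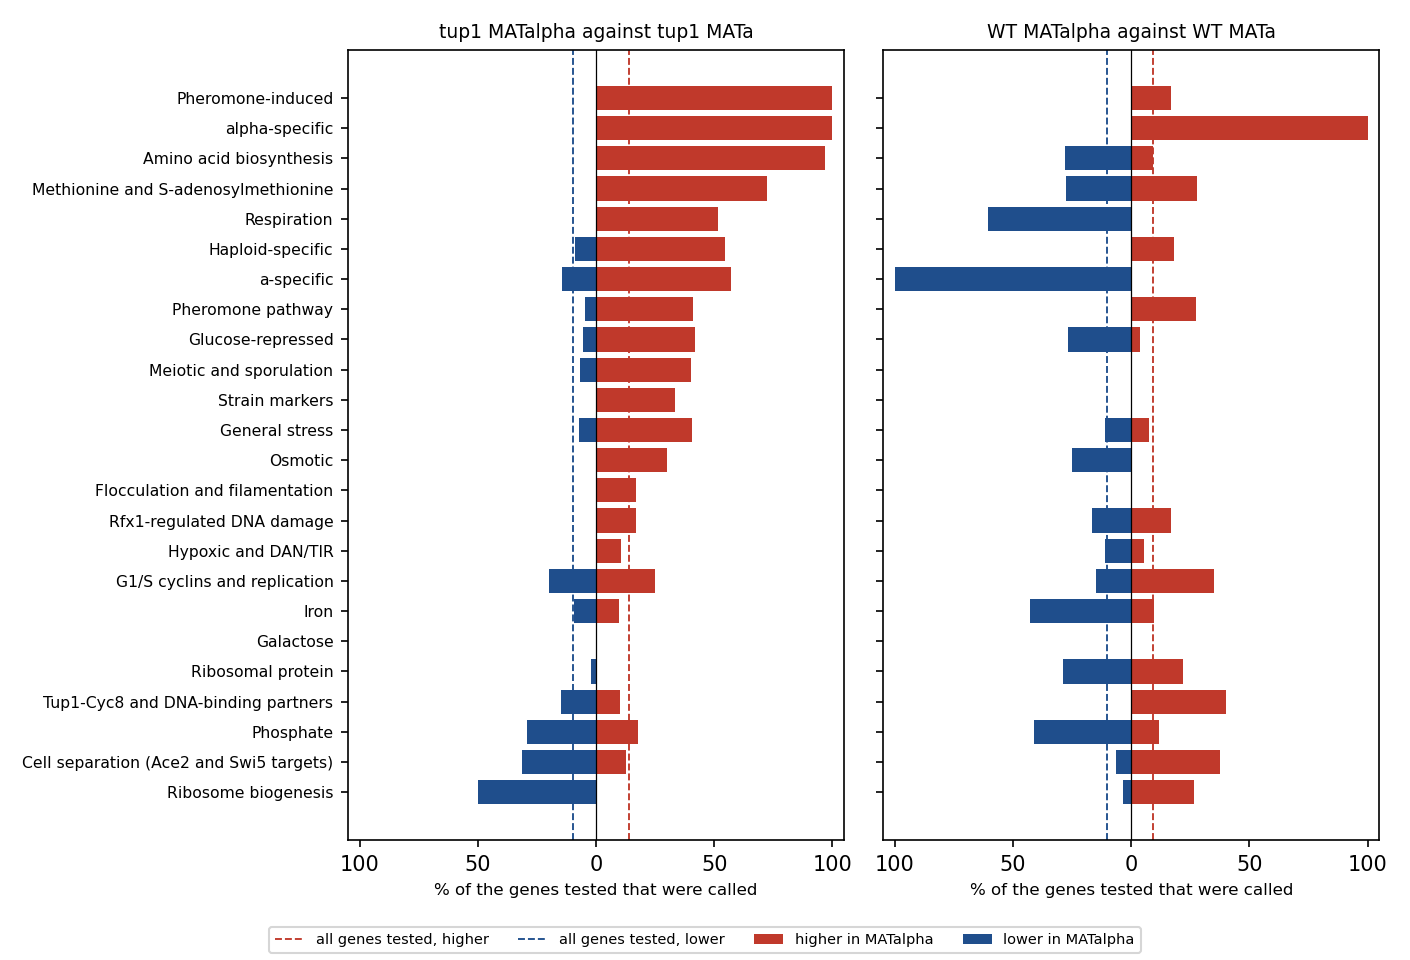
Percent of the genes tested in each list that were called higher (bars to the right of 0) or lower (bars to the left) in MATalpha, in tup1 and in WT, with dashed lines at the percent over all genes tested. The a-specific list is called lower throughout in WT and mostly higher in tup1, and the pheromone-induced and amino acid lists are called higher in nearly all members in tup1, against 3 genes each in WT.

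Calls of any size, large ones included, were compared between the backgrounds, which have no library in common. Of the genes called higher in tup1 MATalpha, 64 were also higher in WT MATalpha, which is 8.13% of the tup1 calls and 12.3% of the WT calls, beside 9.39% of all genes called higher in WT and 14.0% called higher in tup1. Genes higher in tup1 and lower in WT numbered 86, or 10.9% of the tup1 calls and 15.1% of the WT calls, beside 10.3% of all genes called lower in WT and 14.0% called higher in tup1, and the interaction was called for all 86. Lower in both were 40 genes, or 7.43% of the tup1 calls and 7.01% of the WT calls, beside 10.3% of all genes called lower in WT and 9.57% called lower in tup1. A further 47 were lower in tup1 and higher in WT, or 8.74% of the tup1 calls and 9.04% of the WT calls, beside 9.39% and 9.57% of all genes, again all with the interaction called. These shares lie near those of all genes.

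Set against the 6 WT libraries, most differences that appeared came with tup1 MATalpha outside the WT range. Of the 143 genes that appeared higher, tup1 MATalpha lay above all WT libraries for 138, and for those 138 tup1 MATa lay above them for 41, below them for 26 and overlapped them for 71. These positions are a description, since the choice of the genes used the same libraries. By size, 46 of the 143 were at least 4-fold, 24 at least 8-fold and 15 at least 16-fold higher, with a median log2 difference of 1.61. By list, 19 were pheromone-induced, 10 of amino acid biosynthesis and 8 of methionine metabolism, and 96 were in no list. Over all 5620 genes, tup1 MATalpha lay above the WT range for 1737 and tup1 MATa for 1303.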

How the data were processed

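The authors deposited raw counts per gene in 1 table of 6219 genes and 12 libraries, with ribosomal RNA removed and a stranded library kit used, per the labels' protocols. The submitters' processing notes name the builds sacCer3 and R64 and the tools featureCounts 1.6.3 (Subread), STAR 2.7.3 and cutadapt 2.8. What each tool did, how strand was set and whether multi-mapping reads were counted is not given there, so genes that overlap or have near-identical copies are uncertain.

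Tests were run in R 4.3.3 with edgeR 4.0.16. Low genes were removed with filterByExpr (minimum count 10), libraries scaled by TMM, and robust quasi-likelihood fits made on the 6 tup1 libraries, on the 6 WT libraries and, for the interaction, on all 12. Tests were two-sided with Benjamini-Hochberg adjustment over all genes tested, at a threshold of 0.05. SE is the absolute log2 fold change divided by the square root of the test's F statistic. It approximates the standard error, and it can be too small for genes with counts near 0 in a group. Levels are CPM with TMM factors over the 12 libraries. They are not divided by gene length, so they are compared between libraries and not between genes. Library depth was 5657714 to 9300353 counts, and for genes with 0 counts in a group folds are bounds against 3 counts over the group. Intervals on few counts are exact and cover counting error only. The test was also run on simulated data, whose outcome is not given here.

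Symbols and positions came from the R64 gene table, which matched 5926 of 6219 identifiers. Of the 293 others, 276 were transfer RNAs. Motifs were searched with Python 3.11.15 and pandas 2.3.3, intervals computed with scipy 1.17.1 and figures drawn with matplotlib 3.10.9.

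The comparison and the gene lists were chosen with earlier results of these data known. Named genes are the cell type genes, HO, TUP1, CYC8 and MCM1, up to 4 called members of each other list by size (up to 10 for pathway, pheromone-induced and haploid-specific lists), the 10 highest and 10 lowest outside the lists with at least 10 CPM and groups that do not overlap, the genes that remain, vanish or are reversed, and the 10 widest each way of those that appear. STE4, STE5, STE18, NEJ1, DIT1 and NDT80 are named as listed or marker genes, and LYS20, GCN4 and YER137C were named after their values were seen. Alternatives were RLE and upper-quartile scaling, no filter, DESeq2 1.42.0, 1 fit on all 12 libraries, a replicate block and each library left out. Leaving out the transfer RNA genes was chosen after the data were seen. Replicate numbers were not used to pair the samples, except in the replicate block.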

Additional observations from a re-analysis of the deposited data

Results flagged for a closer look

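The values here are interactions, the log2 mating type difference in tup1 minus that in WT. They are listed because edgeR's test of that difference, over all 12 libraries, passed an adjusted p of 0.05. It did so for 701 genes upward and 648 downward, and for 111 of the 129 named genes that could be tested.

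Among the a-specific genes the values were MFA1 at 10.00, AGA2 at 9.67, MFA2 at 9.14, BAR1 at 7.76, ASG7 at 6.85, STE2 at 6.76 and STE6 at 4.48. Of the alpha-specific genes, SAG1 at 2.79 and STE3 at 1.53 were listed. Beside a-factor genes stood YNL146C-A at 4.02, CMI8 at 1.18 and YNL146W at −1.10, and the other WT differences that vanished gave BSC1 at −1.32, PRM7 at −1.21 and YLL066C at −3.55.

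Pheromone-induced genes gave PRM6 at 11.09, FIG1 at 8.59, PRM3 at 7.44, PRM1 at 7.26, PRM2 at 7.17, FIG2 at 5.43, FUS1 at 5.29, AGA1 at 4.87, FUS2 at 3.73 and KAR4 at 3.04. Outside the lists the upward values were SNO1 at 4.19, YNL042W-B at 4.15, SNZ1 at 3.30, CSS1 at 3.30, DPA10 at 3.14 and GRX3 at 3.07, and the transfer RNAs gave tQ(UUG)D2 at 8.72, tA(AGC)P at 8.68, tR(ACG)L at 7.42, tF(GAA)D at 5.72 and tH(GUG)E2 at 3.49.

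Downward values were DIP5 at −2.24, RRT5 at −1.64, UTR2 at −1.12, BUD9 at −1.04, CHA1 at −0.98, SNF11 at −0.92, HTB2 at −0.91, PLB2 at −0.87, YGK1 at −0.83 and SPS4 at −0.69. HO was at −0.97, and the regulators gave MCM1 at −0.59, CYC8 at −0.42 and TUP1 at −0.34. Genes with counts near 0 in a group have values that depend on the prior count. Among them are MFA1, AGA2, ASG7, YNL146C-A, FIG1, PRM3, PRM6, YLL066C and the transfer RNAs.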

How the results depend on the processing

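No named gene's called difference changed sign under any setting tried. Upper-quartile scaling turned the balance of calls: 698 genes higher and 701 lower in tup1, 628 and 458 in WT, and 631 and 863 for the interaction. Counts called lower were the least stable. The 538 genes lower in tup1 MATalpha became 975 in 1 fit on all 12 libraries and ran from 288 (without tup1 MATa replicate 2) to 682 (without tup1 MATa replicate 1) with 1 library left out, with 291 without tup1 MATalpha replicate 1 and 293 without its replicate 3. The 14 at least 2-fold lower ran from 9 (without tup1 MATalpha replicate 3) to 27 (without its replicate 2). The WT counts of 520 and 571 became 30 and 21 in the fit on all 12 libraries, which takes its spread from the mutants too, and DESeq2 called 237 higher in WT. The interaction was lower for 480 to 998 genes, the highest without tup1 MATa replicate 1. The 9 differences that vanished became 5 with DESeq2. The cause of these shifts was not tested.

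The replicate numbers shared by the groups were not used to pair the samples in the main fits. Over 3385 genes the same-number correlations were −0.452, −0.112 and 0.113 in tup1. Replicate 1 was highest for 26 of 32 amino acid biosynthesis genes in tup1 MATalpha and for 27 in tup1 MATa. For the 18 methionine genes these numbers were 13 and 12, and for the 22 pheromone-induced genes 20 and 4. A fit with the replicate block called 638 genes higher and 323 lower in tup1 MATalpha, with 30 of the 32 amino acid biosynthesis genes higher.

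Calls higher stayed at 579 to 930 with 1 library left out, those at least 2-fold at 177 to 201, and the differences that remained, vanished, appeared or were reversed at 6 to 7, 8 to 10, 138 to 169 and 3 to 4. Of the 128 named genes tested in tup1, no call was lost with RLE scaling or without the filter, 3 with DESeq2, 5 with the block and at most 8 without 1 library. RPL31B lost its call in 6 of 13 settings, RPS7B in 2, RPS27A, GPD1, GIT1 and FTR1 in 1 each (GIT1 and FTR1 without tup1 MATa replicate 1, GPD1 without its replicate 2, RPS27A without tup1 MATalpha replicate 1). Without transfer RNA genes 779 were higher and 533 lower. Differences under 2-fold, genes under 10 CPM and a single strain per group limit what these libraries can show.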

Other observations

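The genes below were picked after their values were seen. IME4, which encodes an RNA methyltransferase of meiosis, had 117 counts in tup1 MATalpha and 0 in tup1 MATa, which is at least 44.6-fold higher, and averaged 6.42 CPM in tup1 MATalpha. In WT it averaged 0.0962 CPM in MATalpha and 0.0419 CPM in MATa, and its interaction of 7.78 ± 2.91 SE was not called by edgeR (adjusted p = 0.0614). Genes that are neither on the amino acid list nor on the methionine list but act in or near amino acid metabolism were also higher in tup1 MATalpha: SRY1, a hydroxyaspartate dehydratase, at 2.22 ± 0.14 SE, and PCL5, a cyclin that promotes turnover of Gcn4, at 1.61 ± 0.10 SE. ARG7, of ornithine synthesis, averaged 200.3 ± 28.0 CPM in tup1 MATalpha and 66.2 ± 10.3 CPM in tup1 MATa (adjusted p = 1.19e-06). BNA2, of NAD synthesis from tryptophan, was at 2.62 ± 0.17 SE, DAL4, the allantoin permease, at 2.29 ± 0.15 SE, and PUG1, a porphyrin transporter, at 2.39 ± 0.15 SE.

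NFG1, 384 bases from the alpha-specific gene AFB1 on the same strand, was at 2.59 ± 0.16 SE. Genes within 1000 bases of a long terminal repeat or Ty element made up 12 of the 137 protein-coding genes that appeared higher (8.76%), against 289 of 5596 genes tested with a position (5.16%).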
